A study of Sus scrofa with 15 samples.

Results

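The content of the cytotoxic granule was followed through 9 genes in 3 porcine NK cell populations: the granzymes *GZMA*, *GZMB*, *GZMH*, *GZMK* and *GZMM*, perforin (*PRF1*), granulysin (*GNLY*), *NKG7* and serglycin (*SRGN*). They were taken by gene symbol from a count table of 29886 genes, where all 9 were found, and all 9 passed the filter on low counts that left 10939 genes for testing. *GZMK* passed it only through lrNK cells, the population where it is high, so it had to differ. The populations were sorted from 5 pigs, 6 months old, with no treatment named in the labels, each pig giving a library of every population (15 libraries). They were conventional NK cells from blood (cNK cells, CD8αhigh), conventional NK cells from liver (liver CD8αhigh NK cells) and liver-resident NK cells (lrNK cells, CD8αdim), all CD3- and CD172a- cells. Cells from liver came from a last portion of the buffer run through the portal vein, so they are those that a flush releases. The libraries read transcripts from the 3′ end and held 2003499 to 5680221 counts each (median 3686363), with the lowest median, 2407859, in lrNK cells.

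An NK cell kills by moving granules to the contact with its target and releasing their content there. Perforin opens pores in the target membrane, and granzymes, a family of serine proteases, enter through them and cleave proteins inside the target. Granzymes A and K cut after basic residues, granzyme B after aspartate, granzyme H after aromatic residues and granzyme M after methionine or leucine. Granulysin, known in the pig as NK-lysin, disrupts the membranes of microbes and cells. Serglycin is the proteoglycan that holds granzymes in the granule, and NKG7 is a protein of the granule membrane that takes part in degranulation.

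Levels are given as CPM, reads scaled to a common library size (counts divided by the total in units of 1e+06, after edgeR's TMM factors), and as mean ± SD over the 5 pigs. A single edgeR model of the 15 libraries gave each difference (quasi-likelihood test), with p-values adjusted by the Benjamini-Hochberg method over all 10939 genes, and a gene was called at an adjusted p under 0.05. Markers checked the sort. The 10 NK cell markers summed to between 2052 and 4815 CPM in every library, and the lrNK library of pig 3 was the lowest. Of the 10, 4 were higher in lrNK than in cNK cells (*NCR1*, *KLRB1*, *KLRD1* and *CD244*). The 3 lower ones were *CD8A*, on which the cells were sorted, *NCR3* and *HCST*. Monocyte and macrophage markers did not exceed 25.6 CPM in sum, hepatocyte markers not 8.14 CPM and endothelial markers not 18.5 CPM, while erythroid and platelet markers reached 320.2 CPM in a blood library. Of 7 T cell markers, *CD4*, *CD5* and *CD28* had no read, and *CD3G* made up most of the sum, at 865 CPM in cNK cells and 289 CPM in lrNK cells. The 5 B cell markers summed to 214 to 685 CPM in lrNK libraries, 10.9 to 109 CPM in blood libraries and 0 to 44.2 CPM in liver CD8αhigh libraries. They were thus highest in the same libraries in which the granule genes differed, with *CD79A* at 0 throughout, and their part in the results was not tested. In bulk libraries, fewer cells that express a gene and less RNA per cell cannot be told apart.

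The granule genes did not move together. In lrNK cells against cNK cells, 4 of 9 rose (*GZMK*, *GZMA*, *SRGN* and *NKG7*), 4 fell (*GNLY*, *GZMH*, *GZMB* and *GZMM*) and *PRF1* was not called. Of all genes tested, 18.2% were called in this comparison, 8.62% higher and 9.6% lower. In 7 of 9 genes the 5 lrNK libraries lay wholly above or wholly below the 5 blood libraries, which was so for 13.5% of all genes tested. Of these 7, 3 lay above (6.18% of all genes) and 4 below (7.33%). Without *GZMK*, 7 of 8 genes were called, 3 higher and 4 lower, and 6 of 8 did not overlap. Among these 8, *GZMH* and *GNLY* passed the filter only through the CD8αhigh libraries, where they are high, with lrNK counts as low as 0 and 8. Log2 fold changes ran from -6.03 to 6.84, with a median of 0.06, beside a median of 0.01 over all genes. Their median size without regard to sign was 2.35, beside 0.45 over all genes.

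**Figure D1:**
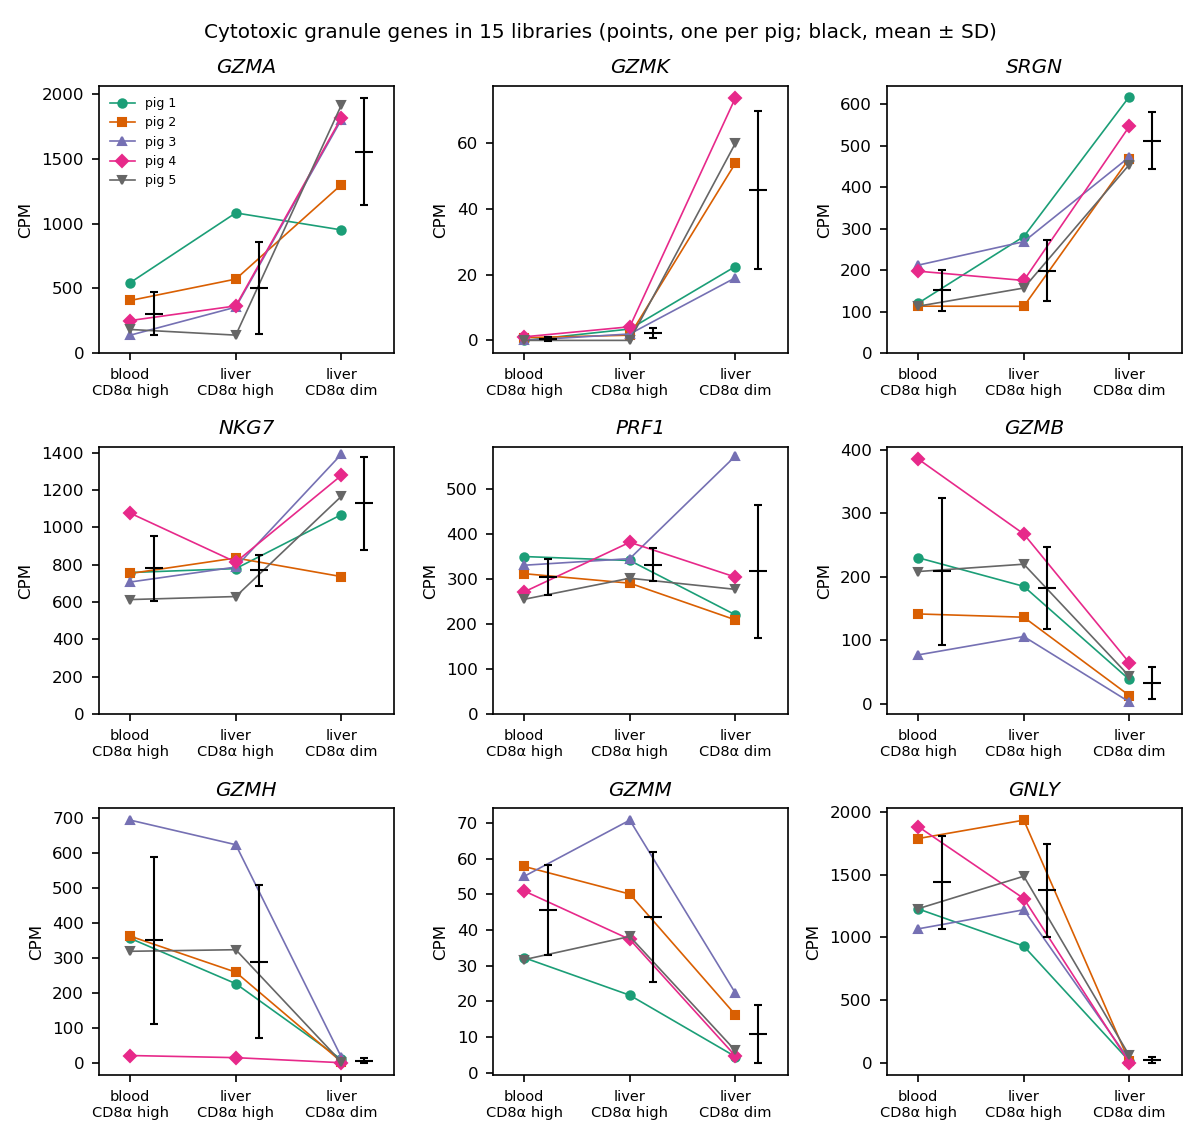
Level of each granule gene in CPM (y axis, linear, own scale in each panel) in the 3 populations (x axis), with a line and symbol for each pig and black bars for mean ± SD. *GZMA*, *GZMK* and *SRGN* lie higher in all 5 lrNK libraries than in all 5 blood libraries, *GZMB*, *GZMH*, *GZMM* and *GNLY* lie lower, and *PRF1* overlaps.

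*GZMA* encodes the trypsin-like granzyme A. Its level in pigs 1 to 5 was 544, 406, 138, 251 and 182 CPM in cNK cells, 1082, 571, 354, 364 and 138 CPM in liver CD8αhigh NK cells and 951, 1299, 1801, 1815 and 1913 CPM in lrNK cells. All lrNK libraries lay above all blood libraries, while the liver CD8αhigh library of pig 1 reached into the lrNK range. The rise from 304 ± 168 CPM in cNK cells to 1556 ± 414 CPM in lrNK cells was 5.12-fold (95% confidence interval of the log2 fold change 1.48 to 3.23, adjusted p = 3.50e-04, edgeR). Against liver CD8αhigh NK cells, at 502 ± 359 CPM, the lrNK level was 3.10-fold higher (log2 fold change 1.63, adjusted p = 0.00849, edgeR), in 4 of 5 pigs. Without pig 4 this difference was not significant (log2 fold change 1.48, adjusted p = 0.0618, edgeR), and without pig 1 the log2 fold change was 2.26.

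The order of the pigs by *GZMA* turned around between populations. Pig 1 was highest and pig 2 next in both CD8αhigh populations, whereas in lrNK cells pig 1 was lowest, pig 2 next to lowest and pig 5 highest. The relative step from blood to lrNK cells was therefore small in pig 1 and large in pigs 3 and 5.

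*GZMK* encodes granzyme K, which like granzyme A cuts after basic residues. It was counted 0, 3, 0, 3 and 0 times in the blood libraries of pigs 1 to 5, 10, 6, 7, 24 and 0 times in the liver CD8αhigh libraries and 54, 112, 39, 262 and 229 times in the lrNK libraries. The gene was thus at the limit of detection in cNK cells and present in every lrNK library, at 22.4, 53.8, 19.0, 73.6 and 59.8 CPM. The fitted difference of 6.84 on the log2 scale (SE 0.83, adjusted p = 3.76e-06, edgeR) is a value that depends on how counts near 0 are handled. Summed over libraries, 696 reads in lrNK cells and 6 in cNK cells gave a ratio of rates of 139 (95% exact Poisson interval 63.6 to 381, which covers counting error only).

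Liver CD8αhigh NK cells had 47 *GZMK* reads in all, a ratio to cNK cells of 6.46 (95% exact Poisson interval 2.76 to 18.5, counting error only). They had more than blood in 4 of 5 pigs, and pig 5 had 0 in both. Over the replicates this difference was not called (log2 fold change 2.51, unadjusted p = 0.00953, adjusted p = 0.705, edgeR), and the log2 fold change was 3.16 without pig 2. The lrNK level was above that of liver CD8αhigh NK cells in all 5 pigs, with no overlap (log2 fold change 4.33, adjusted p = 9.75e-05, edgeR).

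In the Sscrofa11.1 assembly, *GZMK* lies on chromosome 16 from 34217339 to 34226139 and *GZMA* 36355 bases further on, from 34262495 to 34272084. RefSeq has a second gene under the symbol *GZMA*, from 34282160 to 34290422, while the count table has a single *GZMA* row, so it is not known whether that row holds reads of both. *GZMB*, on chromosome 7 from 74705499 to 74708781, and *GZMH*, from 74723800 to 74727396, are 15018 bases apart. Both genes of the chromosome 16 pair were higher in lrNK cells and both of the chromosome 7 pair lower. *GZMM*, on chromosome 2 from 77753817 to 77761436, fell. Granzyme genes are paralogs, and how reads that align to several genes were counted is not stated, so a part of their reads may be misplaced.

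*GZMB* encodes granzyme B, the protease that cuts after aspartate and can activate caspases. Its level in pigs 1 to 5 was 230.1, 142, 77.3, 385 and 208 CPM in cNK cells, 185, 137, 106, 267 and 219.98 CPM in liver CD8αhigh NK cells and 38.6, 13.4, 3.41, 65.2 and 43.9 CPM in lrNK cells. Every lrNK library was below every CD8αhigh library of either organ. It fell 6.18-fold from cNK cells (log2 fold change -2.63, SE 0.49, adjusted p = 5.59e-04, edgeR). Against liver CD8αhigh NK cells it was 5.44-fold lower (adjusted p = 0.00122, edgeR).

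*GZMH* encodes the chymotrypsin-like granzyme H. In pigs 1 to 5 it had 356, 363, 695, 20.6 and 319 CPM in cNK cells, 227, 259, 625, 14.5 and 324 CPM in liver CD8αhigh NK cells and 9.55, 2.88, 16.6, 0 and 2.35 CPM in lrNK cells. Each of the 5 pigs had less in lrNK cells, and only the low liver CD8αhigh level of pig 4 fell within the lrNK range. On the log2 scale the difference was -5.94 against cNK cells (SE 0.94, adjusted p = 1.01e-04, edgeR) and -5.66 against liver CD8αhigh NK cells (adjusted p = 1.90e-04, edgeR). Without the lrNK library of pig 3, the highest of the 5, they were -6.68 and -6.42.

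*GZMB* and *GZMH* also differed between animals, and pigs 3 and 4 stood at opposite ends for the 2 genes. In each of the 3 populations pig 3 had the highest *GZMH* and the lowest *GZMB*. Pig 4 had the highest *GZMB* and the lowest *GZMH* in each. Pigs 1, 2 and 5 lay between them. In every population some pairs of pigs 1, 2 and 5 changed order between the 2 genes and others kept it. The number of *GZMB* reads for each *GZMH* read was 0.111 in blood of pig 3 and 18.7 in blood of pig 4, and 0.170 and 18.5 in their liver CD8αhigh NK cells. The sum of both genes varied less than *GZMH* alone in cNK cells, from 406 to 773 CPM, with a coefficient of variation of 24.3% beside 68.2% for *GZMH* and 55.4% for *GZMB*. In liver CD8αhigh NK cells the sum had a coefficient of variation of 36.3%, *GZMH* 76.0% and *GZMB* 35.1%, and in lrNK cells the sum had 52.6%, *GZMH* 108% and *GZMB* 75.1%. A test of differences between pigs in the blocked model, chosen after these values were seen, called *GZMH* (adjusted p = 4.14e-05, edgeR) and *GZMB* (adjusted p = 0.0198, edgeR) and none of the other 7 granule genes. Over all genes tested, 0.421% were called between pigs. The other 7 had unadjusted p-values from 0.00325 for *GZMM* and 0.0365 for *SRGN* up to 0.303 (edgeR). Whether reads of these neighbouring paralogs were split differently in different animals was not tested.

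**Figure D2:**
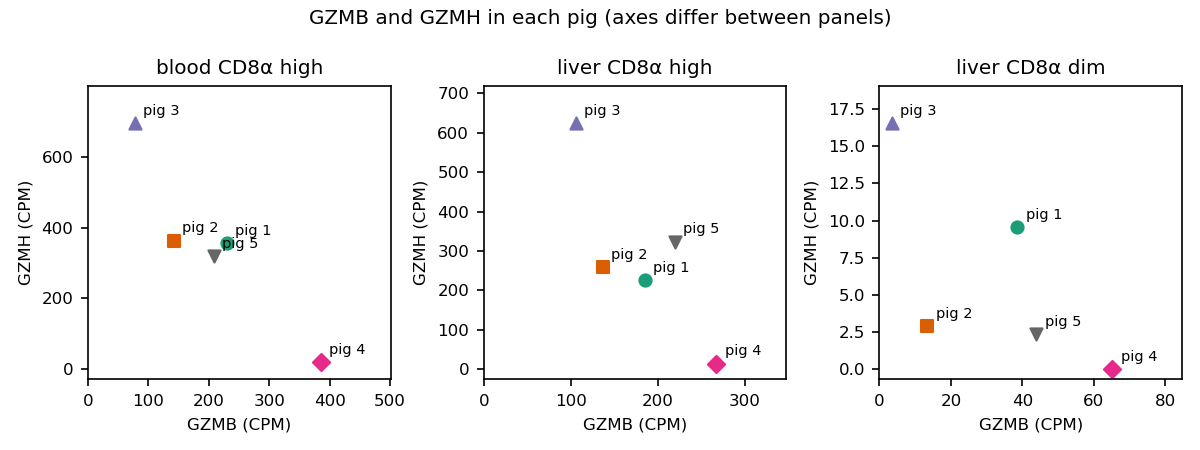
Level of *GZMB* (x axis, CPM) against *GZMH* (y axis, CPM) for each of the 5 pigs in the 3 populations, with axes that differ between panels. Pig 3 stands at the top left and pig 4 at the bottom right of every panel.

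*GZMM* encodes granzyme M, the least read granzyme in blood apart from *GZMK*. In pigs 1 to 5 it had 32.2, 57.8, 55.1, 51.0 and 31.7 CPM in cNK cells, 21.8, 50.1, 70.8, 37.4 and 38.2 CPM in liver CD8αhigh NK cells and 4.57, 16.3, 22.4, 4.77 and 6.27 CPM in lrNK cells. The lrNK libraries lay below all blood libraries, and that of pig 3 was just above the lowest liver CD8αhigh library. Its level fell 4.31-fold from cNK cells (log2 fold change -2.11, SE 0.42, adjusted p = 9.71e-04, edgeR) and was 4.13-fold lower than in liver CD8αhigh NK cells (adjusted p = 0.00140, edgeR).

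*PRF1* encodes perforin, the pore former. Its level in pigs 1 to 5 was 351, 312, 331, 272 and 256 CPM in cNK cells, 342, 291, 346, 382 and 302 CPM in liver CD8αhigh NK cells and 221, 209.8, 574, 305 and 278 CPM in lrNK cells. The 3 populations overlapped, and the lrNK library of pig 3 was highest of all 15. No difference was called. Between lrNK and cNK cells the log2 fold change was 0.06, with a 95% confidence interval of -0.39 to 0.51 (adjusted p = 0.900, edgeR), and between lrNK and liver CD8αhigh NK cells -0.07, with an interval of -0.52 to 0.38 (adjusted p = 0.895, edgeR). Without the lrNK library of pig 3 the first was -0.25 (adjusted p = 0.282, edgeR), so the sign rests on that library. The second was -0.39 without it. *PRF1* was higher in lrNK than in cNK cells in 3 of 5 pigs, and lower than in liver CD8αhigh NK cells in 4 of 5.

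*GNLY* encodes granulysin and lies on chromosome 3 from 59067327 to 59072034. It had 1226, 1787, 1068, 1882 and 1229 CPM in cNK cells of pigs 1 to 5, 929.6, 1934, 1219.5, 1309 and 1487 CPM in liver CD8αhigh NK cells and 14.5, 10.6, 21.4, 2.25 and 58.8 CPM in lrNK cells. There was no overlap between lrNK cells and either CD8αhigh population. In cNK cells its mean level was above that of 99.3% of the genes tested, and in lrNK cells above that of 44.5%. It fell 65.2-fold from cNK cells (log2 fold change -6.03, adjusted p = 4.02e-08, edgeR), the lowest adjusted p of the 9 genes. It was 62.4-fold lower in lrNK cells than in liver CD8αhigh NK cells (log2 fold change -5.96, SE 0.52, adjusted p = 4.54e-08, edgeR), and the lrNK level itself varied 26.2-fold between pigs. Without pig 5, the highest lrNK library, the log2 fold changes were -6.97 against cNK and -6.84 against liver CD8αhigh NK cells.

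*SRGN* encodes serglycin and lies on chromosome 14 from 72183368 to 72199262. Its level in pigs 1 to 5 was 120.3, 113, 212, 197 and 113 CPM in cNK cells, 281, 113, 268, 175 and 157 CPM in liver CD8αhigh NK cells and 618, 469, 473, 546 and 454 CPM in lrNK cells. All lrNK libraries were above all CD8αhigh libraries of both organs, and they varied least, with a coefficient of variation of 13.5%. It rose 3.39-fold from cNK cells (log2 fold change 1.76, SE 0.24, adjusted p = 1.75e-05, edgeR) and was 2.58-fold higher than in liver CD8αhigh NK cells (adjusted p = 3.29e-04, edgeR).

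*NKG7* encodes the granule membrane protein. Its level in pigs 1 to 5 was 758, 753, 707, 1076 and 613 CPM in cNK cells, 779, 836, 787, 814 and 629 CPM in liver CD8αhigh NK cells and 1068, 736, 1391, 1278 and 1166 CPM in lrNK cells. It was higher in lrNK cells in 4 of 5 pigs, and the lrNK libraries of pigs 1 and 2 lay within the range of the blood libraries. The change was the smallest of the 8 called in lrNK against cNK cells, 1.44-fold (log2 fold change 0.53, SE 0.17, adjusted p = 0.0378, edgeR), and 1.47-fold against liver CD8αhigh NK cells (adjusted p = 0.0358, edgeR). The call was lost when some pigs were left out and, against cNK cells, when only these 2 populations were fitted with all 5 pigs (adjusted p = 0.0880, edgeR). Against cNK cells the adjusted p was 0.0929 without pig 1, 0.165 without pig 3 and 0.147 without pig 5 (edgeR), while it held without pig 2 or 4. Against liver CD8αhigh NK cells it was 0.0867 without pig 1, 0.130 without pig 3, 0.0691 without pig 4 and 0.161 without pig 5 (edgeR), while it held without pig 2.

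**Figure D3:**
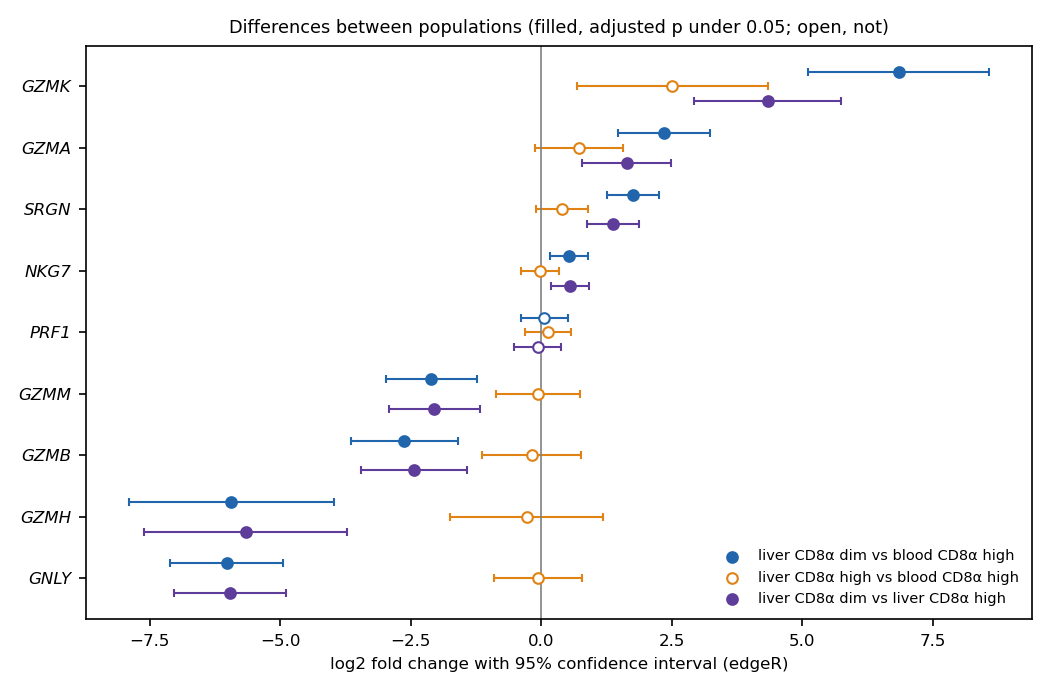
Log2 fold change of each granule gene with its 95% confidence interval (x axis) for the 3 comparisons, genes in rows, filled points called and open points not called. The liver CD8αhigh against blood CD8αhigh points are all open, and both comparisons of lrNK cells run from about -6 for *GNLY* to above 4 for *GZMK*.

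The comparison of CD8αhigh NK cells from liver and blood asks whether these genes differ by organ within 1 phenotype. None of the 9 genes was called between them and cNK cells, by edgeR or DESeq2, and 1, *GZMK*, had an unadjusted p under 0.05 (5.02% of all genes did). Only 0.064% of all genes tested were called in this comparison. The intervals of the log2 fold change were -0.12 to 1.56 for *GZMA*, -1.13 to 0.76 for *GZMB*, -1.75 to 1.19 for *GZMH*, 0.68 to 4.34 for *GZMK*, -0.86 to 0.74 for *GZMM*, -0.32 to 0.58 for *PRF1*, -0.92 to 0.79 for *GNLY*, -0.38 to 0.34 for *NKG7* and -0.10 to 0.89 for *SRGN*. Those of *GZMM*, *PRF1*, *GNLY*, *NKG7* and *SRGN* lie within 1 on the log2 scale in either direction, and those of *GZMA*, *GZMB*, *GZMH* and *GZMK* reach beyond it, that of *GZMK* farthest. The *GZMK* interval, not adjusted for the number of genes, is the one of the 9 that leaves out 0, but the gene was tested here only because its lrNK counts passed the filter, and with only these 2 populations it was not tested. No gene of the 9 had groups that did not overlap, beside 2.01% of all genes.

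Against liver CD8αhigh NK cells of the same organ, 8 of 9 granule genes were called in lrNK cells, 4 higher and 4 lower, beside 14.6% of all genes tested (6.96% higher and 7.68% lower). The groups did not overlap for *GZMK*, *SRGN*, *GZMB* and *GNLY* (4 of 9), beside 11.9% of all genes. Of the 4, 2 lay above (5.18% of all genes) and 2 below (6.67%). *GZMK*, which passed the filter only through lrNK cells and had to differ, is counted among the 8 called, the 4 higher and those above. Without it, *SRGN*, *GZMB* and *GNLY* remain without overlap. This comparison shares its lrNK libraries with the one against blood. In the model with the pig as a block, 8 of 9 were again called against cNK cells (19.4% of all genes), 0 between liver CD8αhigh and cNK cells (0.0731%) and 8 of 9 against liver CD8αhigh NK cells (15.7%), with no call changed. Both counts of 8 include *GZMK*.

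The sum over the 9 genes overlapped between populations while its make-up differed. Reads summed to 3585 ± 479 CPM in cNK cells, 3697 ± 369 CPM in liver CD8αhigh NK cells and 3630 ± 698 CPM in lrNK cells. *GNLY* took 39.8 ± 6.23% of these reads in cNK cells, 37.3 ± 9.22% in liver CD8αhigh NK cells and 0.579 ± 0.533% in lrNK cells. *GZMA* took 4.198 to 15.03% in cNK cells, 4.19 to 28.1% in liver CD8αhigh NK cells and 32.3 to 48.0% in lrNK cells. The *PRF1* share was 8.59 ± 1.41%, 9.10 ± 1.56% and 8.54 ± 2.67%, that of *NKG7* 21.7 ± 2.58%, 20.9 ± 1.96% and 31.0 ± 3.71%, and that of *SRGN* 4.25 ± 1.42%, 5.41 ± 1.89% and 14.7 ± 4.19%. *GNLY* had the largest share in all 5 blood libraries, and *GZMA* in 4 of 5 lrNK libraries, with *NKG7* ahead of it in pig 1.

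For each *PRF1* read there were 0.416 to 1.55 *GZMA* reads in blood libraries, 0.457 to 3.16 in liver CD8αhigh libraries and 3.14 to 6.89 in lrNK libraries, so that lrNK libraries were apart from blood but met the highest liver CD8αhigh library. For *GZMB* the numbers were 0.233 to 1.42, 0.307 to 0.727 and 0.00594 to 0.214 in the same order, with lrNK libraries apart from both. Between *GZMA* and *GZMB* the ratio was 0.651 to 2.86 in blood, 0.628 to 5.85 in liver CD8αhigh and 24.6 to 528 in lrNK libraries. A 3′ count does not grow with transcript length, but these are shares of reads, not of molecules or protein.

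**Figure D4:**
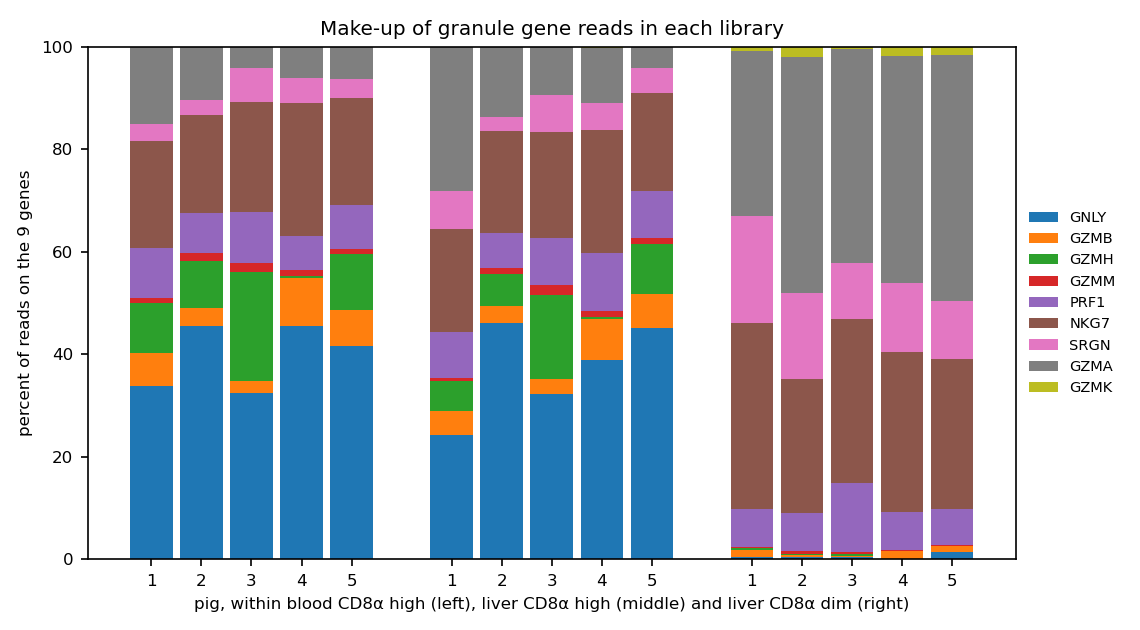
Percent of the reads on the 9 granule genes that fell on each gene (y axis, stacked to 100) in each library, by pig within the 3 populations (x axis). *GNLY* is the largest part in cNK cells and *GZMA* the largest in lrNK cells of pigs 2 to 5, with *NKG7* next.

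The lists around the granule are read against the 18.2% of all genes called in lrNK against cNK cells (8.62% higher and 9.6% lower) and the 14.6% called in lrNK against liver CD8αhigh NK cells (6.96% higher and 7.68% lower). Of 11 genes that process, sort or restrain granule proteins, 8 were tested, and in lrNK against cNK cells 1 rose, 1 fell and 6 were not called (median log2 fold change 0.39), close to that share. With the pig as a block 3 were called, beside 19.4% of all genes, the third being *SERPINB1*, a protease inhibitor higher in all 5 pigs (adjusted p = 0.0718, and 0.0309 with the block, edgeR). *CALR*, calreticulin, a chaperone that also binds perforin, went up from 364 ± 42.6 to 620.0 ± 217 CPM (by 0.77 on the log2 scale, adjusted p = 0.00496, edgeR). *SERPINB9*, the inhibitor of granzyme B, fell from 13.2 ± 5.14 to 1.35 ± 1.25 CPM (difference of -3.24 on the log2 scale, adjusted p = 0.00217, edgeR), the same direction as *GZMB*. *CTSC*, the cathepsin that activates granzymes, was at 204 ± 45.6 and 242 ± 45.0 CPM and was not called (adjusted p = 0.381, edgeR), and was named, like *RAB27A* further on, for its role and after its value was seen. In the comparison with liver CD8αhigh NK cells, *CALR* and *SERPINB9* were called in the same directions and *CTSH*, another protease that activates granzyme B, was higher in lrNK cells, at 15.2 ± 11.8 against 1.84 ± 1.17 CPM (adjusted p = 0.00736, edgeR).

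Of 17 genes of granule trafficking and exocytosis, 3 rose, 1 fell and 13 were not called in lrNK against cNK cells (median log2 fold change -0.14), beside 18.2% called over all genes. *LYST*, a regulator of lysosome size, rose most (log2 fold change 3.13). *UNC13D*, which primes granules for fusion, rose from 43.2 ± 14.6 to 104 ± 23.4 CPM (adjusted p = 6.79e-04, edgeR), and *STX11*, a SNARE of the same step, from 50.6 ± 13.8 to 106 ± 38.9 CPM (adjusted p = 0.00387, edgeR). *SYTL2*, an effector of RAB27 on granules, fell from 441 ± 44.8 to 167 ± 30.5 CPM (adjusted p = 6.25e-07, edgeR), while *RAB27A* itself was not called (adjusted p = 0.0991, edgeR). Against liver CD8αhigh NK cells 3 were higher and 2 lower, beside 6.96% and 7.68% of all genes. Of these, *LAMP1* (adjusted p = 0.0483) and *KIF5B* (adjusted p = 0.0483) lost the call in the blocked model (adjusted p = 0.0513 and 0.0585, edgeR). The number called in this comparison was 3 without pig 1, 2 or 4 and 2 without pig 5.

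Among 11 death ligands and effector cytokines, 8 were tested, and 3 rose and 5 were not called in lrNK against cNK cells (median log2 fold change 0.97), beside 8.62% higher over all genes. *TNFSF10*, the ligand TRAIL, rose from 143 ± 46.3 to 350 ± 95.3 CPM (adjusted p = 3.91e-04, edgeR) and the chemokine *XCL1* from 20.1 ± 12.0 to 54.1 ± 20.3 CPM (adjusted p = 0.0125, edgeR). The chemokine *CCL4* was higher at low levels, 1.82 ± 1.71 and 13.7 ± 12.2 CPM (adjusted p = 0.00922, edgeR). *FASLG*, *CSF2* and *CCL3L1* were too low to test. Without pig 5, 1 of the 8 was called. *TNFSF10* was the gene of this list called against liver CD8αhigh NK cells (log2 fold change 0.73, adjusted p = 0.0365, edgeR), and none was without pig 1, 2, 4 or 5. The median log2 fold change in that comparison was -0.01. In liver CD8αhigh against cNK cells the median was 0.87, though none of the 8 was called in the main fit. *CCL4*, at 19.7 ± 10.8 CPM in liver CD8αhigh NK cells, and *XCL1*, at 45.2 ± 17.9 CPM, were above cNK cells in all 5 pigs. The same held for *TNFSF10*, at 212 ± 20.8 CPM.

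Of 12 transcription factors that act on effector genes, 2 rose, 4 fell and 6 were not called in lrNK against cNK cells (median log2 fold change -0.20), beside 8.62% higher and 9.6% lower over all genes. Besides the opposite changes of *TBX21*, which fell by 2.55 on the log2 scale, and *EOMES* (log2 fold change 4.09), *ZEB2* fell by 3.74 on the log2 scale. *RUNX3*, a Runt factor of cytotoxic lymphocytes, fell from 1557 ± 236 to 744 ± 393 CPM (adjusted p = 0.00479, edgeR) and *STAT5B*, a factor of IL-15 signalling, from 238 ± 23.1 to 149 ± 25.4 CPM (adjusted p = 0.00246, edgeR). In lrNK against liver CD8αhigh NK cells *EOMES* was higher and *ZEB2*, *TBX21*, *RUNX3* and *STAT5B* lower, with *RUNX3* (adjusted p = 0.0497, edgeR) and *STAT5B* (adjusted p = 0.0412, edgeR) nearest the threshold, and 3 were called without pig 1, 2, 4 or 5 or with library totals in place of TMM factors. Between liver CD8αhigh and cNK cells none of the genes tested in these 4 lists was called. In the list of death ligands and cytokines 1 gene was called by DESeq2, and by edgeR without the filter on low counts, with only these 2 populations or without the lrNK library of pig 3.

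**Figure D5:**
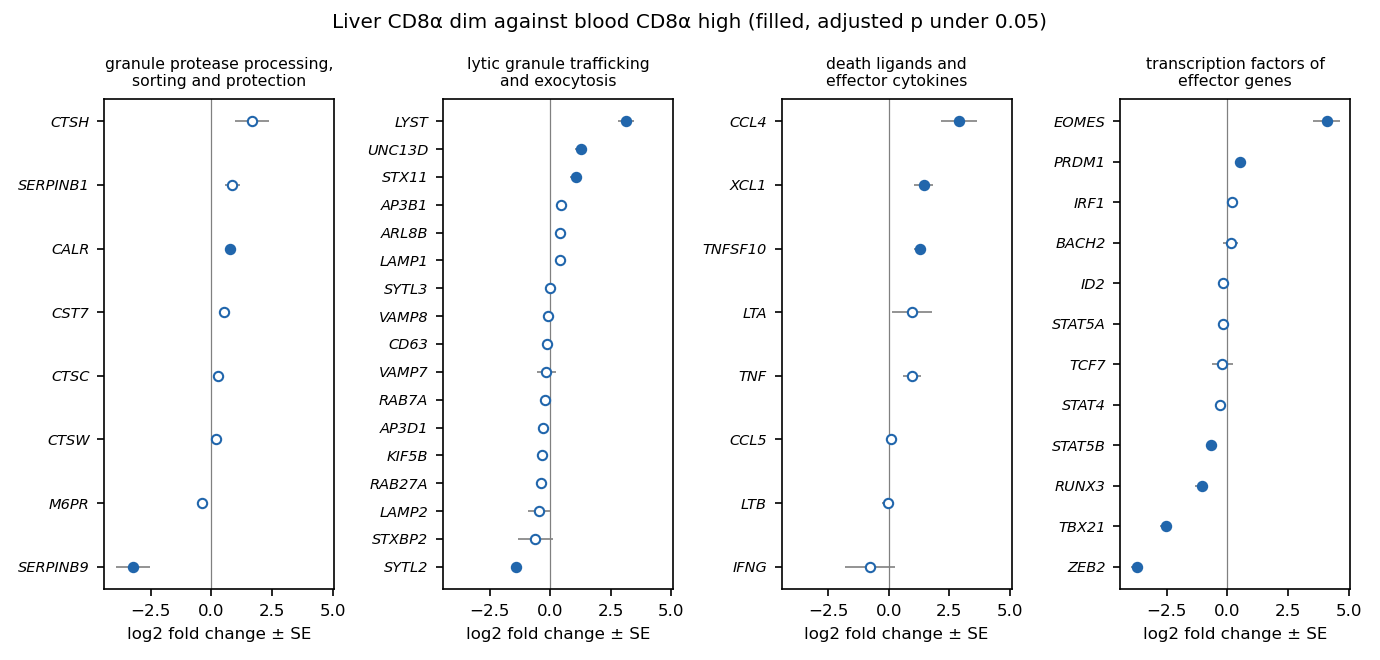
Log2 fold change with its standard error (x axis) in lrNK against cNK cells for the tested genes of 4 lists around the granule (rows), filled points called. Most points near 0 are open, and *EOMES*, *ZEB2*, *SERPINB9*, *LYST* and *CCL4* lie farthest out.

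Across the 15 libraries, the genes closest to each granule gene were others than granule genes. By Pearson's r of log2 CPM, the closest gene was *APMAP* for *GZMA* (0.969), *OCIAD2* for *GZMB* (0.966), *ATP2B1* for *GZMH* (0.952), *ARHGAP18* for *GZMK* (0.958), *ANXA2* for *GZMM* (0.958), *DOCK5* for *GNLY* (0.984), *DUSP5* for *SRGN* (0.949), *GNPDA1* for *NKG7* (0.898) and *LOC102164818* for *PRF1* (0.875). The next were *SERPINF1* and *COTL1* for *GZMA*, *LIMS1* and *RARG* for *GZMB*, *PIK3R5* and *LOC100738859* for *GZMH*, *C1H15orf48* and *LOC110262197* for *GZMK*, and *RMND5A* and *ITGB7* for *GZMM*. For *GNLY* they were *ZNF831* and *TRIB2*, for *SRGN* *TOX2* and *CD96*, for *NKG7* *SNRPD1* and *SEPT11*, and for *PRF1* *PIK3CG* and *PLEKHO2*. These values describe 15 libraries of 5 pigs in which lrNK cells stand apart, so for genes that differ between populations they can carry that difference. How far they do was not tested.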

How the data were processed

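The authors trimmed the reads with QuasR, aligned them with HISAT2 (through Rhisat2) to Sscrofa11.1 and deposited raw counts for each gene and library, without normalization. Which tool counted the reads, with or without strand, and how multiply aligned reads were treated is not given in the sources used here. All 15 columns were matched by label to a population and a pig, and 0 were left unmatched. Totals per library lay between 2003499 and 5680221, so genes with few reads are measured with low precision. No library looked like another counted again (chi-square per degree of freedom 9.82 to 51.3 over 30 pairs within populations).

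The test was that of edgeR 4.0.16 in R 4.3.3 (TMM, default filter by population, quasi-likelihood test, Benjamini-Hochberg adjustment over 10939 genes, threshold 0.05). Standard errors (SE) equal the absolute log2 fold change over √F. Log2 CPM used a prior count of 2. The labels name the pig of each library, and libraries of the same pig deviated together (mean correlation 0.107 over 15 pairs, beside -0.0265 over 60 pairs of different pigs), so a second model had the pig as a block. Alternatives were DESeq2 1.42.0, its size factors, library totals, no filter, robust dispersion, a fit of only the 2 populations compared, a threshold of 0.01, each pig left out and, chosen after seeing the data, the lrNK library of pig 3 or 4 left out. The code was tested on simulated data. Positions come from RefSeq's table of the same assembly, where 29862 of 29886 symbols matched. Plots were made in Python 3.11.15 (matplotlib 3.10.9). The genes and lists were chosen with earlier results of these data known. Named were the 9 granule genes, up to 5 called genes of each list and comparison with the largest change, and the 3 genes closest to each granule gene in log2 CPM. *SERPINB1* and *ID2* were added after their values were seen. Sequences were not analysed here.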

Additional observations from a re-analysis of the deposited data

Results flagged for a closer look

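In 2 of 27 sets of 5 libraries (9 genes in 3 populations) the highest or lowest library stood apart from the rest by Dixon's criterion (gap to the nearest library over the whole range, against the 95% critical value), and chance gives about 1 such set in 20. The *PRF1* level of pig 3 was 574 CPM in lrNK cells, with 305 CPM in the nearest library. The *NKG7* level of pig 5 was 629 CPM in liver CD8αhigh NK cells, with 779 CPM in the nearest.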

How the results depend on the processing

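Directions and calls of *GZMA*, *GZMB*, *GZMH*, *GZMK*, *GZMM*, *GNLY* and *SRGN* in lrNK cells held under all 14 alternatives, except *GZMA* against liver CD8αhigh NK cells without pig 4. For *NKG7* adjusted p-values (edgeR or DESeq2) ran from 0.0154 to 0.165 against cNK cells and from 0.0122 to 0.161 against liver CD8αhigh NK cells. Granule genes called, *GZMK* included, numbered 7 to 8 against cNK cells and 6 to 8 against liver CD8αhigh NK cells over all alternatives. Between liver CD8αhigh and cNK cells the number was 0 in each, where *GZMK* was not tested with only these 2 populations. Values of genes that were not called changed sign. *PRF1* in lrNK against cNK cells went to -0.012 with the pig as a block and ranged from -0.25 (without the lrNK library of pig 3; -0.23 without pig 3) to 0.23 (without pig 1) when libraries were left out, and against liver CD8αhigh NK cells from -0.39 (without the lrNK library of pig 3) to 0.042 (without pig 1), with 0.0029 without pig 2. In liver CD8αhigh against cNK cells, leaving out a pig gave -0.22 to 0.033 for *GZMM*, -0.13 to 0.069 for *GNLY* and -0.067 to 0.099 for *NKG7*, which was 0.014 with library totals.

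The number of all genes called was 1993, 7 and 1601 for lrNK against cNK, liver CD8αhigh against cNK and lrNK against liver CD8αhigh NK cells. With the pig as a block it was 2120, 8 and 1716, and no call of a granule gene changed, while in the lists around the granule *LAMP1* and *KIF5B* lost theirs against liver CD8αhigh NK cells, *SERPINB1* gained one in both lrNK comparisons (adjusted p = 0.0309 and 0.0144, edgeR) and *ID2* against liver CD8αhigh NK cells (adjusted p = 0.0305, edgeR). At a threshold of 0.01 it was 1199, 0 and 947. Leaving out a pig gave 1472 to 1951, 0 to 8 (0 without pig 2) and 1051 to 1453 (1051 without pig 5), and leaving out the lrNK library of pig 3 gave 2301, 12 and 1764. The second was 24 with DESeq2, 18 without filter, 4 with robust dispersion and 16 with only its 2 populations. The causes were not tested. Low counts limit *GZMK* in both CD8αhigh populations and *GZMH* in lrNK cells.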

Other observations

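Within 100000 bases of the granule genes, RefSeq lists 58 other genes, of which 20 were tested. Between lrNK and cNK cells 1 of the 20 was called, beside 18.2% of all genes. It was *ATOH8*, a transcription factor gene beside *GNLY* on chromosome 3, which differed by -4.16 on the log2 scale (adjusted p = 0.00140, edgeR). *CDC20B*, beside *GZMA*, differed by 2.97 and was not called (adjusted p = 0.0960, edgeR). Both were named after their values were seen.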
